A study of Mus musculus with 12 samples.

Results

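The circadian clock genes are 10 members of the transcriptional loop that keeps daily time in mammalian cells: Arntl (also called Bmal1), Clock, Per1, Per2, Per3, Cry1, Cry2, Nr1d1, Nr1d2 and Dbp. They were chosen by gene symbol, and all 10 were found among the 22607 genes of the count table and passed the filter on low counts that left 16007 genes to test. The tissue was tibialis anterior, a shin muscle, of C57BL/6 male mice aged 13 weeks. The muscle had been transduced with a vector for Crtc2, which serves as a coactivator of Creb1, or with GFP as the control vector. The mice went through alternate day fasting (ADF) for 3 rounds or ate ad libitum (fed). This gave 4 groups of 3 libraries: ADF Crtc2, ADF GFP, fed Crtc2 and fed GFP, so that every library, controls included, came from transduced muscle. The labels give neither the promoter of the vectors, nor the hour of collection, nor the time since the last meal. A difference in the phase of the daily cycle between the diets therefore cannot be told apart from a difference in level. Nor is it given whether each library stands for an animal of its own, so p-values measure only how far these libraries scatter, and that scatter may be technical. Whether a mouse gave both a Crtc2 and a GFP muscle is not stated either, and the libraries were tested as unpaired. The protocols name a pair of library kits without assigning them, and a preparation difference that followed the diets cannot be told apart from the diet.

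In the mammalian clock, the proteins of Arntl and Clock pair up and switch on genes through E-box sequences, among them the Per and Cry genes, whose proteins return to block that pair. The nuclear receptors encoded by Nr1d1 and Nr1d2 (REV-ERB alpha and beta) repress Arntl through ROR elements, which the ROR receptors also bind. Dbp is an output of the loop and a transcription factor of D-box sequences, and Per1 is also known as a target of Creb1 through cyclic AMP response elements (CRE). Muscle has a clock of its own, and feeding time is known to set clocks in peripheral tissues.

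Libraries held 24232450 to 34610417 counts, and 68.9 to 74.7% of the counts from 2 to 21 in a library were even numbers, so that low counts may stand for fewer fragments than printed, which was not tested. Crtc2 itself had 42.8, 40.6 and 31.4 CPM (counts scaled to library size, with sizes adjusted by the trimmed mean of M values, TMM) in ADF Crtc2 muscle, against 19.7, 16.1 and 23.6 CPM in ADF GFP muscle. It had 64.9, 58.2 and 77.9 CPM in fed Crtc2 muscle, against 29.2, 17.3 and 24.02 CPM in fed GFP muscle, so the vector groups did not overlap under either diet. All 8 markers of muscle fibres were present, Acta1, Ckm and Tnnt3 among them, and their summed level was 115745 to 207359 CPM in a library.

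The diets differed in the clock genes, with members moving in opposite directions. Averaged over the vectors, Per1 and Nr1d1 were higher under ADF than in fed muscle, and Per2, Per3 and Dbp were lower, with adjusted p under 0.05 in edgeR's quasi-likelihood test with Benjamini-Hochberg adjustment over all genes tested. Arntl, Clock, Cry1, Cry2 and Nr1d2 did not pass. These 5 of 10 members compare with 18% of all 16007 genes, of which 9.38% were higher and 8.64% lower. In GFP muscle 3 members passed (Nr1d1 higher, Per3 and Dbp lower), where 7.12% of all genes did, 4.06% higher and 3.06% lower. In Crtc2 muscle 4 members passed (Per1 higher, Per2, Per3 and Dbp lower), where 11% of all genes did, 6.3% higher and 4.68% lower. The median log2 fold change of the members, ADF minus fed, was 0.22 in GFP muscle, 0.10 in Crtc2 muscle and 0.18 over both, against -0.01, -0.13 and -0.09 for all genes tested. The 3 comparisons share libraries and are not independent of each other. The members were chosen with earlier results of these data known, so their counts beside the shares of all genes are description only.

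**Figure D1:**
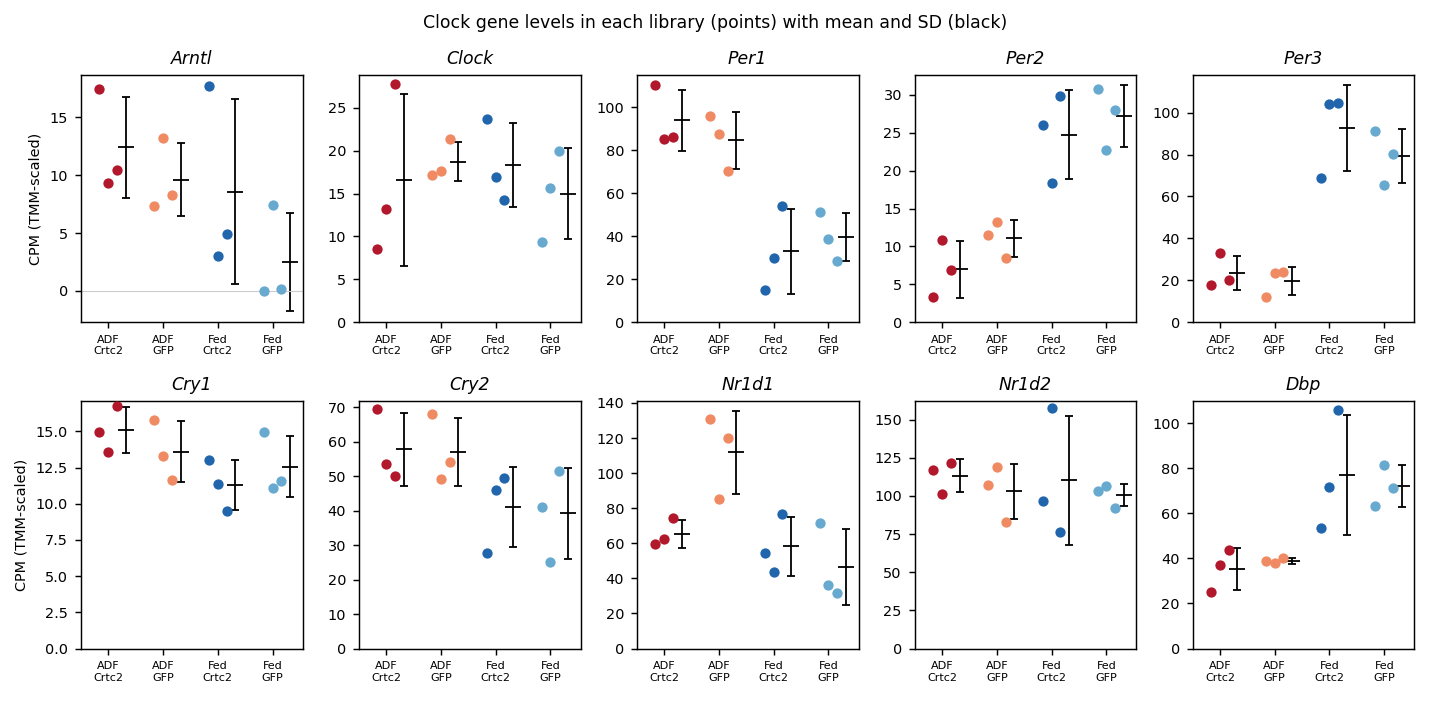
Level of each clock gene in CPM (vertical axis, a separate scale for each gene) in the 12 libraries, by group (horizontal axis), with points for libraries and black bars for mean ± SD of 3 libraries. Per1 lies between 70.3 and 110.3 CPM in all 6 ADF libraries and between 14.8 and 54.1 CPM in all 6 fed libraries, and Per3 runs the other way with 11.8 to 32.9 CPM under ADF and 65.6 to 105 CPM in fed muscle.

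The levels were compared between genes as CPM per kilobase of exonic sequence. Under ADF, Nr1d1 stood first at 28.8 ± 9.74 CPM per kilobase (SD, n = 6 libraries of both vectors), followed by Nr1d2 at 19.99 ± 2.69, Per1 at 15.8 ± 2.36, Dbp at 12.4 ± 2.09 and Cry2 at 9.08 ± 1.44. Cry1 at 4.29 ± 0.557, Per3 at 2.25 ± 0.731, Per2 at 1.54 ± 0.618, Arntl at 1.46 ± 0.496 and Clock at 1.28 ± 0.482 CPM per kilobase came after them. In fed muscle, Dbp stood first at 24.9 ± 6.03 CPM per kilobase (SD, n = 6), followed by Nr1d2 at 19.5 ± 5.12, Nr1d1 at 17.0 ± 6.01, Per3 at 8.93 ± 1.77, Per1 at 6.43 ± 2.64 and Cry2 at 6.34 ± 1.77. Per2 at 4.43 ± 0.805, Cry1 at 3.57 ± 0.557, Clock at 1.21 ± 0.358 and Arntl at 0.736 ± 0.878 CPM per kilobase closed the order. Neighbours whose mean ± SD ranges overlap were not told apart by their spread. Under ADF these were the neighbours from Nr1d1 down to Cry2 and those from Per3 down to Clock. In fed muscle these were all neighbours except Nr1d1 and Per3, and Cry1 and Clock. Per3 thus stood below Cry1 under ADF and above it in fed muscle, each time by more than their SD. These levels are per length and describe the order within these libraries only.

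The activators Arntl and Clock are the positive limb of the loop. Arntl (chr7:113207465-113314126 on GRCm38, plus strand) was detected at 17.4, 9.36 and 10.4 CPM in ADF Crtc2 muscle and at 7.37, 13.2 and 8.25 CPM in ADF GFP muscle. It had 17.7, 3.00 and 4.96 CPM in fed Crtc2 muscle and 0, 7.41 and 0.135 CPM in fed GFP muscle. The last 3 values rest on 0, 218 and 4 counts. A count of 0 allows up to 0.118 CPM in the first of these libraries, for counting error only and with each count taken as a fragment of its own. The bound is higher if fragments were counted more than once. All 6 ADF libraries thus had at least 172 counts of Arntl, while the fed libraries reached both the highest and the lowest level of the 12.

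The difference between the diets in Arntl was not called in either muscle. The log2 fold change, ADF minus fed, was 1.93 ± 1.32 (SE, adjusted p = 0.485, edgeR quasi-likelihood test) in GFP muscle and 0.54 ± 1.27 (adjusted p = 0.876) in Crtc2 muscle. Without fed GFP replicate 2, the only library of its group with more than 4 counts, the value in GFP muscle was 6.97 with an adjusted p of 0.000954, and that over both vectors was 3.74 with an adjusted p of 0.000493. These fitted values rest on a group near 0 and are not estimates of size. Other genes of like level were also at or near 0 in these libraries: among the 2509 genes with a mean within 1.5-fold of Arntl's 8.27 CPM, 2.07% had 0 counts in fed GFP replicate 1 and 2.43% had 4 counts or fewer in fed GFP replicate 3. In fed GFP replicate 2 the share with 0 counts was 0.0797%. In fed GFP replicate 3 it was 1.75%. The highest share of the 12 libraries, 3.03%, was in fed Crtc2 replicate 1, the library with the most Arntl counts (453). Genes with any count numbered 14436, 16347 and 14678 in fed GFP replicates 1, 2 and 3, and 14313 in fed Crtc2 replicate 1. Whether these shares bear on the Arntl counts was not tested.

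Clock (chr5:76209868-76304792, minus strand), the partner of Arntl, had 8.59, 13.2 and 27.8 CPM in ADF Crtc2 muscle and 17.1, 17.7 and 21.3 CPM in ADF GFP muscle. Fed muscle had 23.7, 17.0 and 14.2 CPM with Crtc2 and 9.37, 15.6 and 20.01 CPM with GFP. The groups overlapped throughout, and the ADF Crtc2 libraries alone spanned the whole range of the 12. Its log2 fold change, ADF minus fed, was 0.32 ± 0.43 (adjusted p = 0.787) in GFP muscle and -0.15 ± 0.43 (adjusted p = 0.905) in Crtc2 muscle, both in edgeR's quasi-likelihood test.

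A window of 250 bases before to 50 after each gene's start was read from RefSeq sequence of build GRCm38.p6 for the members that had one, 9 of 10 with 13 windows in all, Per2 being the exception. The windows were searched on both strands for the E-box CACGTG, its variant CACGTT, the D-boxes TTATGTAA and TTACGTAA, the ROR elements TAGGTCA and TGGGTCA, the CRE TGACGTCA and the short CRE form TGACG, which also lies inside the full CRE. Of all 32851 windows of this length in the table, 7.15% held the E-box, 4.68% its variant, 0.938% and 0.119% the D-boxes, 2.61% and 3.98% the ROR elements, 1.79% the full CRE and 20.8% the short form. The second of the overlapping Arntl windows (chr7:113207261-113207560, plus strand) is printed because it holds the ROR element TAGGTCA, in capitals 30 bases after the start. This is the type of element at which the receptors of Nr1d1 and Nr1d2 act. No window of Clock held any of the motifs.
Arntl: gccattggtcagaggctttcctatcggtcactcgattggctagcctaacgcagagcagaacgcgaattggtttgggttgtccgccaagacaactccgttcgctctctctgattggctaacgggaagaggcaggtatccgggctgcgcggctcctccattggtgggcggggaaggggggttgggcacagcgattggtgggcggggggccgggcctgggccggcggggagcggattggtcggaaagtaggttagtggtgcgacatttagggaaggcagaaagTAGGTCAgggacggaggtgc

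The Period genes encode repressors that, with the Cry proteins, close the loop, and they did not move as a block: Per1 was higher under ADF, and Per2 and Per3 were lower. Per1 (chr11:69095217-69109960, plus strand) had 110.3, 85.2 and 85.9 CPM in ADF Crtc2 muscle, against 14.8, 29.9 and 54.1 CPM in fed Crtc2 muscle. It had 96.0, 87.3 and 70.3 CPM in ADF GFP muscle, against 51.0, 38.8 and 28.6 CPM in fed GFP muscle. The lowest ADF library stood above the highest fed library with either vector. In Crtc2 muscle Per1 rose, with a log2 fold change of 1.51 ± 0.34 (SE, 2.85-fold, adjusted p = 0.00598). In GFP muscle the log2 fold change was 1.10 ± 0.34 and did not pass (2.14-fold, adjusted p = 0.0547, edgeR quasi-likelihood test), although DESeq2's Wald test called it (adjusted p = 0.0398). Over both vectors the rise was 1.30 ± 0.24 (2.47-fold, adjusted p = 0.000579).

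Per2 (chr1:91415982-91459324, minus strand), a repressor like Per1, moved the other way. It had 3.28, 10.8 and 6.86 CPM in ADF Crtc2 muscle, against 26.0, 18.4 and 29.9 CPM in fed Crtc2 muscle. Its levels were 11.5, 13.3 and 8.47 CPM in ADF GFP muscle, against 30.8, 22.7 and 28.0 CPM in fed GFP muscle. No ADF library reached the lowest fed library. Per2 fell in Crtc2 muscle by 1.82 ± 0.42 on the log2 scale (3.54-fold lower, adjusted p = 0.0062). In GFP muscle its log2 fold change was -1.29 ± 0.41 (adjusted p = 0.0636, edgeR quasi-likelihood test), which did not pass, and it did pass DESeq2's Wald test (adjusted p = 0.0323). Over both vectors it fell by 1.56 ± 0.30 (2.94-fold lower, adjusted p = 0.000603).

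Per3 (chr4:151003652-151044665, minus strand) differed between the diets by more, relative to its error, than any other member. It had 17.8, 32.9 and 20.2 CPM in ADF Crtc2 muscle, against 68.8, 104 and 105 CPM in fed Crtc2 muscle. In GFP muscle it had 11.8, 23.3 and 23.8 CPM under ADF, against 91.4, 65.6 and 80.4 CPM when fed. The group means were 23.6 ± 8.10 CPM in ADF Crtc2 and 19.7 ± 6.79 CPM in ADF GFP muscle, against 92.5 ± 20.6 CPM in fed Crtc2 and 79.1 ± 12.9 CPM in fed GFP muscle (SD, n = 3 each). With either vector the highest ADF library held less than the lowest fed library. Per3 fell by 1.97 ± 0.30 on the log2 scale in Crtc2 muscle (3.92-fold lower, adjusted p = 0.000135) and by 2.01 ± 0.30 in GFP muscle (4.02-fold lower, adjusted p = 0.000178), both in edgeR's quasi-likelihood test. Leaving out any library of the comparison kept an adjusted p of at most 0.00179 in Crtc2 muscle and 0.00185 in GFP muscle.

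The windows of Per1 and Per3 are printed because these genes moved in opposite directions and differ in the motifs found, Per3 having been chosen after its values were seen. Per1 has 2 starts. The upstream window (chr11:69098699-69098998, plus strand) holds an E-box 166 bases before the start and a short CRE 246 bases before it. The downstream window (chr11:69099902-69100201, plus strand) holds a short CRE 132 bases before the start. The window of Per3 (chr4:151044616-151044915, minus strand) holds the D-box TTATGTAA 205 and 158 bases before the start, a motif that Dbp binds. Capitals mark these matches, which describe letters in a window and not binding.
Per1 upstream: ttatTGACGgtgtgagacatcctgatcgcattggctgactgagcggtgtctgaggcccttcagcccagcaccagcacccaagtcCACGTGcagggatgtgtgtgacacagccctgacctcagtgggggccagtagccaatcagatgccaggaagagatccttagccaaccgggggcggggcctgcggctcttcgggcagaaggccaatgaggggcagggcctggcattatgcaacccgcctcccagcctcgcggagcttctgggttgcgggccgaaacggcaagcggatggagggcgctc
Per1 downstream: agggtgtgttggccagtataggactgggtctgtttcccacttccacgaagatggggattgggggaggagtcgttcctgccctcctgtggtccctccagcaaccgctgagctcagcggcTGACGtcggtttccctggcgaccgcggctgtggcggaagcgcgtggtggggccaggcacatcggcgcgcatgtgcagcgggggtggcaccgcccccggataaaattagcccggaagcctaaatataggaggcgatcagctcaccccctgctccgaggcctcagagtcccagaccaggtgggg
Per3: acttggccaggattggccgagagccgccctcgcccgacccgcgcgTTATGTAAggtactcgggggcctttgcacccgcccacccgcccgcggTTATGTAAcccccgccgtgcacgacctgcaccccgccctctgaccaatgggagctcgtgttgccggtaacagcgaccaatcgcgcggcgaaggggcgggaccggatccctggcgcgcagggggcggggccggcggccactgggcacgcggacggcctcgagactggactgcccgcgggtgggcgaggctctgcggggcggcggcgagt

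The cryptochromes, the partners of the Period proteins in repression, were not called in any comparison. Cry1 (chr10:85131700-85185064, minus strand) was among the steadiest members: its levels lay between 11.6 and 16.7 CPM in the 6 ADF libraries and between 9.51 and 14.96 CPM in the 6 fed libraries. The diets overlapped, and its log2 fold change, ADF minus fed, was 0.11 ± 0.40 in GFP muscle and 0.42 ± 0.40 in Crtc2 muscle (adjusted p = 0.937 and 0.609, edgeR quasi-likelihood test). Cry2 (chr2:92403646-92434043, minus strand) had 69.6, 53.5 and 49.99 CPM in ADF Crtc2 muscle, against 27.8, 45.8 and 49.5 CPM in fed Crtc2 muscle. Its levels in GFP muscle were 68.1, 49.2 and 54.0 CPM under ADF, against 40.9, 25.1 and 51.4 CPM when fed. In Crtc2 muscle the ADF libraries stood just above the highest fed library, and in GFP muscle the diets overlapped. Over both vectors the log2 fold change of Cry2 was 0.52 ± 0.20 (adjusted p = 0.0799), and it passed without fed GFP replicate 3 (0.64, adjusted p = 0.0333). Cry2 shares 295 exonic bases, 4.67% of its exons, with D930015M05Rik on the opposite strand. The Cry1 window held an E-box, its variant and a short CRE 60, 79 and 8 bases before the start, and that of Cry2 held the E-box variant and a short CRE 166 and 209 bases before the start.

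The nuclear receptors Nr1d1 and Nr1d2 repress Arntl, and they differed from each other. Nr1d1 (chr11:98767932-98775333, minus strand) had 131, 85.3 and 119.9 CPM in ADF GFP muscle, against 71.3, 36.2 and 31.9 CPM in fed GFP muscle. It had 59.4, 62.5 and 74.3 CPM in ADF Crtc2 muscle, against 54.3, 43.8 and 76.7 CPM in fed Crtc2 muscle. The diets did not overlap in GFP muscle and overlapped in Crtc2 muscle. In GFP muscle Nr1d1 rose, with a log2 fold change of 1.27 ± 0.29 (2.41-fold, adjusted p = 0.00768). In Crtc2 muscle the log2 fold change was 0.17 ± 0.28 and did not pass (adjusted p = 0.808, edgeR quasi-likelihood test). The difference between these responses is the interaction of diet and vector, which was -1.10 ± 0.40 with an unadjusted p of 0.0117 and an adjusted p of 0.544, so the responses of Nr1d1 were not shown to differ. Over both vectors Nr1d1 rose by 0.72 ± 0.20 (1.64-fold, adjusted p = 0.0141). With library totals in place of TMM this became 0.54 with an adjusted p of 0.0548.

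The 3' end of Nr1d1 shares 263 exonic bases, 8.55% of its exons, with Thra on the opposite strand, and the strand setting of the counting is not given in the sources used here. Reads from these bases cannot be assigned with certainty. Nr1d2 (chr14:18204054-18239127, minus strand) had 117, 101 and 122 CPM in ADF Crtc2 muscle and 107, 119 and 82.95 CPM in ADF GFP muscle. Fed muscle had 96.8, 158 and 76.5 CPM with Crtc2 and 103, 107 and 92.3 CPM with GFP. The fed Crtc2 libraries alone spanned the range of all 12, and the log2 fold change, ADF minus fed, was 0.03 ± 0.23 in GFP muscle and 0.04 ± 0.23 in Crtc2 muscle (adjusted p = 0.970 and 0.963, edgeR quasi-likelihood test). The Nr1d1 window (chr11:98775328-98775627, minus strand) is printed because Nr1d1 is a target of the Arntl and Clock pair. It holds the E-box variant on the opposite strand, read here as AACGTG in capitals, 28 bases before the start. None of the motifs was in the window of Nr1d2.
Nr1d1: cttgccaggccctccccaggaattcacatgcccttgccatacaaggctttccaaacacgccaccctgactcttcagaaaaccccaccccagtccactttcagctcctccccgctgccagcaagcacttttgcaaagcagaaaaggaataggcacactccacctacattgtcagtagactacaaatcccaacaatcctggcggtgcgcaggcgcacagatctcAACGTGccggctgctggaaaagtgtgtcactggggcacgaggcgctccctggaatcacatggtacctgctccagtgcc

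Dbp (chr7:45705088-45710203, plus strand), the output transcription factor, was lower under ADF with either vector. It had 25.3, 36.9 and 43.6 CPM in ADF Crtc2 muscle, against 53.4, 71.6 and 106 CPM in fed Crtc2 muscle. The ADF GFP libraries were close together at 38.9, 37.7 and 40.3 CPM, against 63.2, 81.6 and 71.4 CPM in fed GFP muscle. All 6 ADF libraries stood below all 6 fed libraries. Dbp fell by 1.13 ± 0.26 on the log2 scale in Crtc2 muscle (2.18-fold lower, adjusted p = 0.00655) and by 0.89 ± 0.26 in GFP muscle (1.85-fold lower, adjusted p = 0.0411, edgeR quasi-likelihood test). The call in GFP muscle was lost when any of its 6 libraries was left out, with adjusted p from 0.0501 without fed GFP replicate 1 to 0.141 without ADF GFP replicate 2. That in Crtc2 muscle was lost without ADF Crtc2 replicate 1 (adjusted p = 0.0522) and without fed Crtc2 replicate 3 (adjusted p = 0.0614). Over both vectors Dbp fell by 1.01 ± 0.18 (2.01-fold lower, adjusted p = 0.000447), and this passed in every leave-one-out fit, with an adjusted p of at most 0.00197. Dbp shares 539 exonic bases, 18% of its exons, with Sphk2 on the opposite strand. Its window held none of the motifs searched.

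**Figure D2:**
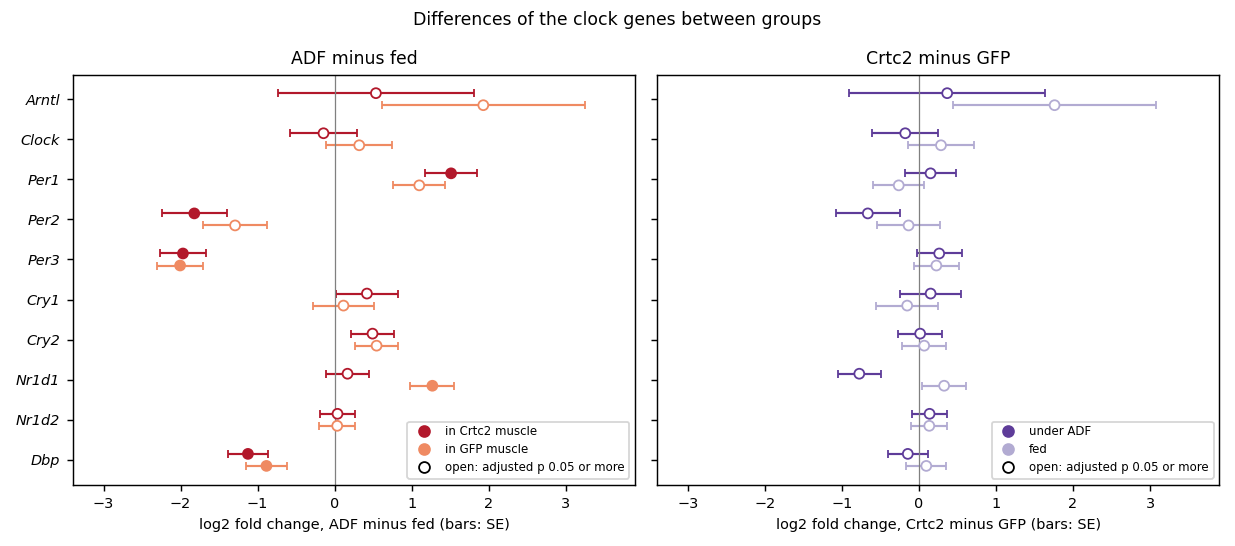
Log2 fold change of each clock gene (horizontal axis, bars for SE) for ADF minus fed in Crtc2 and GFP muscle (left) and for Crtc2 minus GFP under ADF and in fed muscle (right). Filled points have an adjusted p under 0.05: Per1, Per2, Per3 and Dbp in Crtc2 muscle and Per3, Nr1d1 and Dbp in GFP muscle on the left, and no gene on the right.

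Fewer cells of a type and less RNA per cell cannot be told apart in whole muscle. Summed markers of several other cell types also differed between the diets without overlap, but apart from the adipocyte markers not with both vectors. In GFP muscle, the 6 macrophage markers summed to 237 to 415 CPM under ADF, against 161 to 230 CPM in fed muscle. The 5 endothelial markers summed in Crtc2 muscle to 194 to 247 CPM under ADF, against 300 to 423 CPM in fed muscle, and the 4 T cell markers to 0.676 to 1.26 CPM, against 5.19 to 34.2 CPM. The 4 satellite cell markers summed there to 4.31 to 7.25 CPM under ADF, against 9.03 to 20.5 CPM in fed muscle, while the 3 Schwann cell markers ran higher under ADF with 57.5 to 136 CPM, against 14.1 to 42.4 CPM. The 3 adipocyte markers summed to 2.99 to 15.2 CPM in ADF Crtc2 muscle, against 0 to 2.32 CPM in fed Crtc2 muscle, and to 8.01 to 19.5 CPM in ADF GFP muscle, against 0.906 to 7.61 CPM in fed GFP muscle. The macrophage sums overlapped in Crtc2 muscle, with 59.3 to 115 CPM under ADF, against 82.1 to 154 CPM in fed muscle. In GFP muscle the endothelial, T cell, satellite cell and Schwann cell sums overlapped between the diets. Sums of fibroblast and erythroid markers overlapped with either vector. None of these markers was at 0 in all 12 libraries, and their part in the clock gene differences was not tested.

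Of 9 pairs of members set against each other within a library, chosen with earlier results known, 3 parted the diets in all 12 libraries. All 3 set Per1, higher under ADF, against a member that was lower. Per1, Per2, Per3 and Dbp each parted all ADF from all fed libraries by themselves, so these pairs were bound to do so. The share among all pairs of genes was not computed, and the count is description only. The difference of log2 CPM between Per1 and Per3 was 1.37 to 3.01 in the 6 ADF libraries, against -2.21 to -0.76 in the 6 fed libraries. That between Per1 and Per2 was 2.71 to 5.04 under ADF, against -0.81 to 0.85 in fed muscle. Per1 minus Dbp was 0.80 to 2.12 under ADF, against -1.85 to -0.31 in fed muscle. For each of these 3 pairs the lowest ADF library stood above the highest fed library. The values are in CPM, so their sign says nothing of which gene is higher per length. Apart from the prior count of 2 added before the log, such a difference within a library does not depend on how libraries are scaled. The pairs of paralogues among the cryptochromes and the nuclear receptors did not part the diets: Cry2 minus Cry1 was 1.57 to 2.21 under ADF, against 1.09 to 2.37 in fed muscle, and Nr1d1 minus Nr1d2 was -0.98 to 0.53, against -1.85 to 0.00. Per2 minus Per3 also overlapped, with -2.41 to -0.04 under ADF, against -2.50 to -1.40 in fed muscle, as did Per3 minus Dbp with -1.71 to -0.17, against -0.31 to 0.54. Of the pairs with Arntl, Dbp minus Arntl was 0.54 to 2.39 under ADF, against 1.59 to 9.81 in fed muscle, and Nr1d1 minus Arntl was 1.77 to 4.14, against 1.61 to 9.98. The values of 9.81 and 9.98 are from fed GFP replicate 1. Arntl had 0 counts there, so the prior count sets its log2 CPM. These ranges restate the same libraries as the tests above and carry no test of their own.

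**Figure D3:**
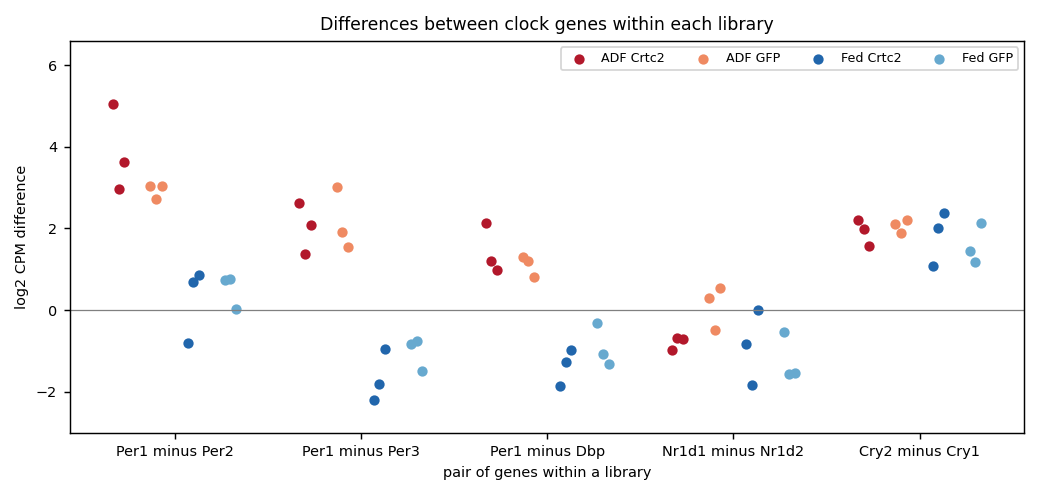
Difference of log2 CPM between the genes of a pair (vertical axis) within each library, for 5 pairs (horizontal axis), with a point for each of the 12 libraries coloured by group. Points of the ADF groups lie above those of the fed groups without overlap for Per1 minus Per2, Per1 minus Per3 and Per1 minus Dbp, and the diets overlap for Nr1d1 minus Nr1d2 and Cry2 minus Cry1.

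**Figure D4:**
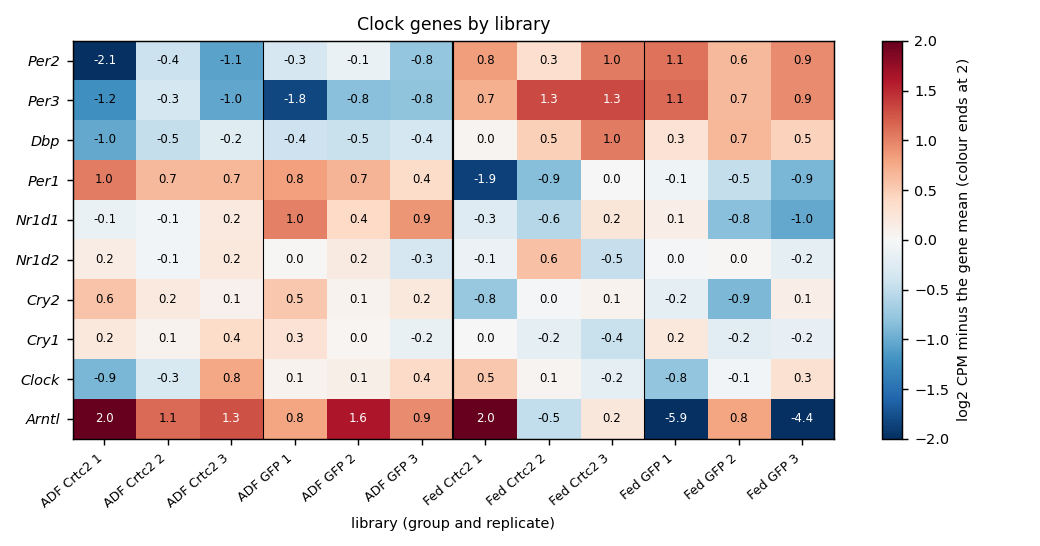
Log2 CPM of each clock gene minus its mean over the 12 libraries (colour, ending at 2 in either direction, with the value written in the cell), by gene (vertical axis) and library (horizontal axis). Per2, Per3 and Dbp are below their mean in the 6 ADF libraries, Per1 is above its mean in them, and Arntl is lowest in fed GFP replicates 1 and 3.

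The likeness of members over the 12 libraries was measured as the root mean square distance between their log2 CPM profiles, each centred on its mean. The closest pair was Cry1 and Nr1d2 at 0.27, both genes with little variation. Dbp was nearest to Per2 (0.55) and then to Per3 (0.66), and Per2 and Per3 were 0.62 apart. Per1 was 1.67 from Per2 and 1.81 from Per3, and its nearest member was Cry2 at 0.61. Arntl was at least 2.33 from every other member, a distance carried by the libraries where it was near 0. Among 9336 genes averaging 5 CPM or more, the profiles nearest to Dbp that are no members were those of Gprasp1 (0.21), Unc45a (0.23), P2rx6 (0.24) and Abhd11 (0.24). Gprasp1 averaged 13.6 CPM under ADF and 27.2 CPM in fed muscle. Nearest to Arntl were Gtf3a (0.46), Rab11b-ps2 (0.71), Alkbh8 (0.83) and Atoh8 (0.86), of which Gtf3a averaged 6.89 CPM under ADF and 3.78 CPM in fed muscle. The centred values of Arntl were lowest in fed GFP replicates 1 and 3, at -5.93 and -4.39. A small distance from Arntl therefore mostly means low values in these libraries too, and says little of the diets.

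A further 27 genes tied to the clock were followed, of which 26 were tested. The exception was the receptor gene Rorb, with 0 CPM in ADF Crtc2 and fed GFP muscle. The list was chosen with earlier results of these data known. Its counts beside the shares of all genes are therefore description only. Over both vectors 6 of the 26 were higher under ADF and 0 lower with adjusted p under 0.05, beside 9.38% higher and 8.64% lower among all genes. At an unadjusted p under 0.05 there were 11 of 26, beside 4819 of 16007 among all genes tested. The count was 5 higher and 0 lower in GFP muscle, beside 4.06% and 3.06% of all genes, and 6 higher and 0 lower in Crtc2 muscle, beside 6.3% and 4.68%. The counts of lower genes were not 0 under every alternative. In Crtc2 muscle Prkaa1, an alpha subunit of AMP kinase, had a log2 fold change of -1.12 ± 0.41 (adjusted p = 0.0863), and it was called lower with DESeq2 (0.0446), with library totals (0.0334) and among genes of at least 10 CPM (0.0364). Arntl2, a paralogue of Arntl, was called lower there without ADF Crtc2 replicate 3 (0.0415). Over both vectors it was called lower with the replicate block (0.0216) and without ADF GFP replicate 3 (0.0182) or ADF Crtc2 replicate 3 (0.0133), and Btrc with library totals (0.0436). Nfil3 and Usp2 were called higher over both vectors in some alternatives: Nfil3 without a filter (0.0396) and without fed GFP replicate 2 (0.0184), and Usp2 without fed GFP replicate 1 (0.0416) or fed Crtc2 replicate 3 (0.0376). Their median log2 fold change was 0.16 over both vectors, against -0.09 for all genes tested.

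The receptor gene Rora encodes an activator that binds the same ROR elements as the products of Nr1d1 and Nr1d2. Rora had 109, 80.2 and 74.5 CPM in ADF Crtc2 muscle and 74.7, 84.2 and 78.1 CPM in ADF GFP muscle. In fed muscle it had 29.3, 32.4 and 38.4 CPM with Crtc2 and 32.6, 49.9 and 52.8 CPM with GFP. All 6 ADF libraries stood above all 6 fed libraries. Rora rose by 1.40 ± 0.24 on the log2 scale in Crtc2 muscle (adjusted p = 0.000425) and by 0.81 ± 0.24 in GFP muscle (adjusted p = 0.038, edgeR quasi-likelihood test). The call in GFP muscle was lost without any of ADF GFP replicates 1, 2 and 3 and fed GFP replicates 1 and 2 (adjusted p from 0.0555 to 0.171), and with library totals (0.0945), the replicate block (0.0515) or only the 6 GFP libraries (0.0819). Over both vectors Rora rose by 1.10 ± 0.17 (adjusted p = 5.87e-05).

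The list of genes that act on clock proteins held 10 of the 26 tested, and 4 of these 10 rose over both vectors while 6 did not pass. Prkaa2, the catalytic alpha subunit of AMP kinase most common in muscle, rose by 1.16 ± 0.21 on the log2 scale (adjusted p = 0.000666), with means of 244 CPM under ADF and 111 CPM in fed muscle. The kinase gene Gsk3b rose by 1.15 ± 0.17 (adjusted p = 3.26e-05), with 72.7 CPM under ADF and 33.1 CPM in fed muscle. Fbxw11, an F-box protein of the ligase that marks phosphorylated Period proteins for breakdown, rose by 1.05 ± 0.22 (adjusted p = 0.00156). Of the members of this list that did not pass, Prkaa1, the paralogue of Prkaa2, had a log2 fold change of -0.46 ± 0.29 (adjusted p = 0.301). Btrc, the paralogue of Fbxw11, had -0.39 ± 0.19 (adjusted p = 0.182). Fbxl21, a ligase gene for the cryptochromes, was at 0 in all 6 ADF libraries, with means of 0.247 CPM in fed Crtc2 and 0.946 CPM in fed GFP muscle (adjusted p = 0.0629). Csnk1d, a kinase of the Period proteins, rose by 0.65 ± 0.16 (adjusted p = 0.00724), and not with library totals (0.45, adjusted p = 0.0739). The other rise was Nampt, the rate-limiting enzyme of NAD salvage and a clock output, by 0.96 ± 0.17 (adjusted p = 0.000361), with 161 CPM under ADF and 83.2 CPM in fed muscle. Leaving out any single library ended none of these 6 calls over both vectors.

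Within a vector these calls were less stable. In GFP muscle Gsk3b (1.30 ± 0.23, adjusted p = 0.00121), Prkaa2 (1.33 ± 0.30, adjusted p = 0.0096), Nampt (1.07 ± 0.24, adjusted p = 0.00884) and Fbxw11 (1.11 ± 0.31, adjusted p = 0.032) rose. Nampt was not called without fed GFP replicate 1 (adjusted p = 0.0518), and Fbxw11 without ADF GFP replicate 2 or 3 or fed GFP replicate 3 (adjusted p from 0.102 to 0.115), with library totals (0.0549) or with only the 6 GFP libraries (0.118). In Crtc2 muscle Csnk1d (0.97 ± 0.23, adjusted p = 0.00824), Gsk3b (0.99 ± 0.23, adjusted p = 0.0069), Nampt (0.86 ± 0.24, adjusted p = 0.0245), Prkaa2 (0.98 ± 0.29, adjusted p = 0.0383) and Fbxw11 (0.99 ± 0.31, adjusted p = 0.0433) rose. None of these 5 passed there with library totals (adjusted p from 0.0649 to 0.202). Fbxw11 was not called without any single library of the 6 (0.0845 to 0.131), with DESeq2 size factors (0.051) or with the replicate block (0.0584), nor Prkaa2 without any but fed Crtc2 replicate 1 (0.0759 to 0.146) or among genes of at least 10 CPM (0.0508). Nampt was not called without ADF Crtc2 replicate 1 or 3 or fed Crtc2 replicate 1 or 3 (0.0553 to 0.119), nor Csnk1d without ADF Crtc2 replicate 1 or fed Crtc2 replicate 1 (0.0659 and 0.0548).

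**Figure D5:**
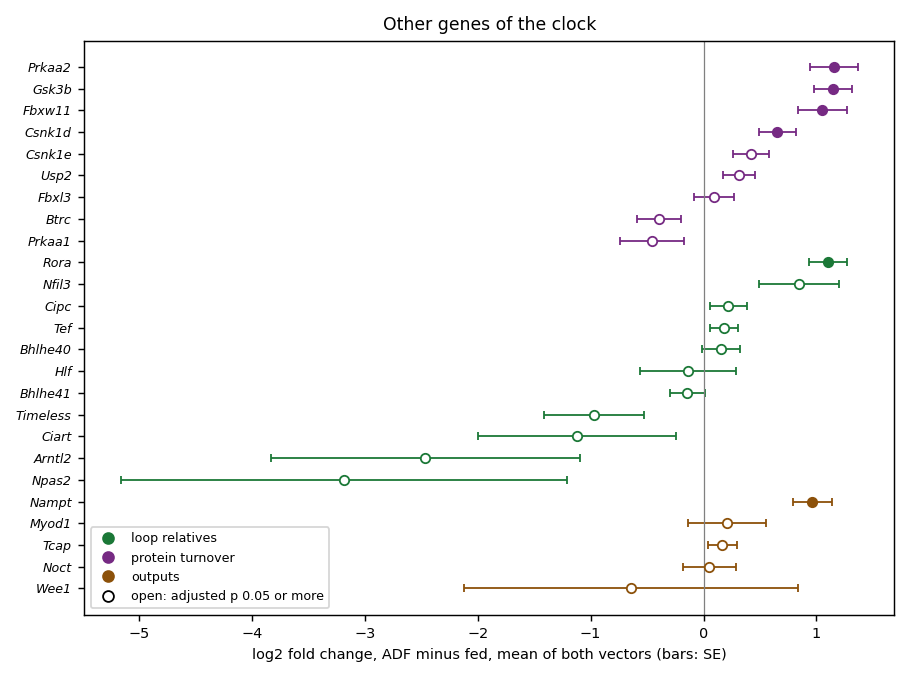
Log2 fold change, ADF minus fed, averaged over the vectors (horizontal axis, bars for SE) of 25 of the 26 other clock genes tested (vertical axis), coloured by list. Filled points have an adjusted p under 0.05, and all 6 of them lie to the right of 0. Fbxl21 is left out, being at 0 in the ADF libraries.

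The comparison of Crtc2 with GFP muscle asks what the vector changed under each diet, and 0 of 10 members passed in either. Under ADF, 0.725% of all genes were called, with 1809 of 16007 at an unadjusted p under 0.05 and 556 called by DESeq2. There 1 member had an unadjusted p under 0.05 and DESeq2 called 0. In fed muscle, where 0% of all genes were called (871 of 16007 at an unadjusted p under 0.05, and 64 by DESeq2), 0 members had an unadjusted p under 0.05 and DESeq2 called 0. Averaged over the diets, 0.494% of all genes were called, with 1624 of 16007 at an unadjusted p under 0.05 and 364 called by DESeq2. Of the members, 0 passed, 0 had an unadjusted p under 0.05 and DESeq2 called 0. The median log2 fold change of the members, Crtc2 minus GFP, was 0.08 under ADF and 0.11 in fed muscle, against -0.01 and 0.01 for all genes tested. A p that misses the threshold does not show that the vectors act alike, and the SE of the members' log2 fold changes, Arntl apart, was 0.23 to 0.43.

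Nr1d1 was the member with the smallest p in this comparison. Its 59.4, 62.5 and 74.3 CPM in ADF Crtc2 muscle lay below its 131, 85.3 and 119.9 CPM in ADF GFP muscle without overlap. The log2 fold change was -0.77 ± 0.28 (unadjusted p = 0.0122, adjusted p = 0.279, edgeR quasi-likelihood test). It passed when only the 6 ADF libraries were fitted (-0.80, adjusted p = 0.0472). In fed muscle the log2 fold change of Nr1d1 was 0.33 ± 0.28, with 54.3, 43.8 and 76.7 CPM in Crtc2 muscle and 71.3, 36.2 and 31.9 CPM in GFP muscle. Under ADF the 6 macrophage markers summed to 59.3 to 115 CPM in Crtc2 muscle, against 237 to 415 CPM in GFP muscle, with 2 of the 6 called lower. There the 4 fibroblast markers summed to 355 to 446 CPM, against 632 to 1252 CPM, and the 4 T cell markers to 0.676 to 1.26 CPM, against 9.32 to 32.8 CPM. The 5 endothelial markers summed to 194 to 247 CPM, against 252 to 385 CPM, and the 3 Schwann cell markers were higher in Crtc2 muscle, with 57.5 to 136 CPM, against 18.7 to 41.0 CPM. None of these markers was at 0 in all 12 libraries, and their part in the difference in Nr1d1 was not tested.

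The printed windows of Per1 hold the short CRE, as do the windows of Cry1 and Cry2 and 20.8% of all windows. No window of a member held the full CRE. Per1 had log2 fold changes, Crtc2 minus GFP, of 0.15 ± 0.33 under ADF (adjusted p = 0.979) and -0.26 ± 0.33 in fed muscle (adjusted p = 1, edgeR quasi-likelihood test). Per2 had -0.66 ± 0.41 under ADF (adjusted p = 0.578) and -0.13 ± 0.41 in fed muscle. For Arntl the values were 0.37 ± 1.27 under ADF and 1.76 ± 1.31 in fed muscle. Fed GFP replicate 2 held 218 counts of Arntl, against 0 and 4 in the others of its group. Without this library the fed value was 6.84 with an adjusted p of 0.0227, and that over both diets was 3.60 with an adjusted p of 0.0123. Over all fits that left out a single library, the fed value ran from 0.66 to 6.84 and that over both diets from 0.51 to 3.60. The highest values rest on a group near 0 and are not estimates of size. The remaining 6 members had log2 fold changes between -0.18 and 0.29 in these comparisons.

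The interaction asks whether the response to ADF differed between the vectors, and 0 of 10 members passed. Crtc2 itself had 31.4 to 42.8 CPM in ADF Crtc2 muscle, against 58.2 to 77.9 CPM in fed Crtc2 muscle. In GFP muscle it had 16.1 to 23.6 CPM under ADF, against 17.3 to 29.2 CPM when fed. The excess of Crtc2 over GFP muscle was thus not alike under the diets, which limits any comparison of the vector effect between them. Across all genes 0% were called, with 1240 of 16007 at an unadjusted p under 0.05 and 111 called by DESeq2. Nr1d1, described above, was the 1 member with an unadjusted p under 0.05, and DESeq2 called 0 members. Per3 had an interaction of 0.04 ± 0.41 on the log2 scale and Dbp one of -0.24 ± 0.37. Per1 had 0.41 ± 0.47 and Per2 -0.53 ± 0.58, so their calls in Crtc2 muscle alone were not shown to mark a difference from GFP muscle. The median interaction of the members was -0.15, against -0.08 for all genes tested. Of the other clock genes tested, 0 of 26 passed in the interaction (3 at an unadjusted p under 0.05) or between the vectors under ADF (2) and in fed muscle (1), in edgeR's quasi-likelihood test. Among all 16007 genes, 1240, 1809 and 871 had an unadjusted p under 0.05 in these comparisons, in the same order. DESeq2 called Tcap, the sarcomere gene encoding telethonin, higher in Crtc2 muscle under ADF (0.55 on the log2 scale, adjusted p = 0.0391), and 0 of the 26 in fed muscle or in the interaction.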

How the data were processed

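RNA of 12 libraries was sequenced, and the deposited values are raw counts per Ensembl gene, whole numbers that the authors did not normalize, as the values show. Tools named in the submitters' processing notes are DESeq2 1.18.1, Subread 1.6.1 with featureCounts, SAMtools 1.7 and HISAT2 2.0.5, beside the builds mm10 and GRCm38. The role of each, the annotation, the strand setting and the treatment of duplicates are not given in the sources used here. Members were matched by gene symbol, with positions and exonic lengths from GENCODE M21. The 10 members, the 27 other clock genes and the marker lists were chosen with earlier results of these data known. One further gene of that list is not reported here.

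The tests used edgeR 4.0.16 under R 4.3.3: TMM scaling, filterByExpr over the 4 groups, a robust quasi-likelihood fit of 4 group means to all 12 libraries, and Benjamini-Hochberg adjustment over 16007 genes, with a threshold of 0.05. The 7 comparisons were ADF against fed and Crtc2 against GFP, each within and averaged over the other factor, and the interaction. The SE is the log2 fold change divided by the root of its F statistic. Log2 CPM used a prior count of 2. Floors are 3 counts, take each count as a fragment of its own and cover counting error only. The smallest two-sided exact p for 3 against 3 libraries is 0.1, so no exact test was used. No library duplicated another of its group. The test was checked on simulated data with the same spread set for every gene, so that check does not cover genes of wider spread, such as Arntl. Named genes are all members, other clock genes past the threshold, Crtc2, 3 muscle genes and the 4 nearest patterns of Arntl and Dbp. Alternatives were other scalings, filters, DESeq2 1.42.0, a replicate block, 6 libraries alone and leaving out each library.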

Additional observations from a re-analysis of the deposited data

How the results depend on the processing

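No called log2 fold change of a member changed sign in 181 alternative values, and 9 lost their call, 8 of them Dbp as given above and 1 Nr1d1 under library totals. Among 872 alternative values of differences that were not called, 90 changed sign and 12 passed, 4 of them Arntl without fed GFP replicate 2. The number of members called in GFP muscle between the diets was 3, against 5 with DESeq2's Wald test and 5 with only the 6 libraries of these groups, both adding Per1 and Per2. With no filter Per1 passed there (adjusted p = 0.00119), and with a mean of at least 10 CPM, which leaves out Arntl, Per2 did (adjusted p = 0.0262), and the cause was not tested. Between the vectors under ADF it was 0, against 1 (Nr1d1) with only the 6 libraries, a fit with fewer samples. Leaving out each library in turn gave 2 to 3 members in GFP muscle, 3 to 4 in Crtc2 muscle and 5 to 6 over both vectors for the diets. For the vectors it gave 0 to 0 under ADF, 0 to 1 in fed muscle and 0 to 1 over both diets, and for the interaction 0 to 0.

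Library totals in place of TMM moved the median log2 fold change of all genes between the diets to -0.11 in GFP, -0.43 in Crtc2 and -0.29 over both, and between the vectors under ADF to -0.22. The share of calls that were higher was then 44.4%, 29.3% and 33.1% for the diets, against 57.0%, 57.4% and 52.0% with TMM. Between the vectors under ADF, DESeq2 called 556 genes of all tested, edgeR without a filter 385 and the 6 libraries alone 300, against 116. Leaving out a library gave 25 to 90 calls there, the fewest without ADF GFP replicate 3 or ADF Crtc2 replicate 1. Over both diets DESeq2 called 364 and leaving out a library gave 42 to 148, against 79. In fed muscle it gave 0 to 18 and in the interaction 0 to 3, against 0 in each. Leaving out a library gave 677 to 1230 calls between the diets in GFP muscle, against 1140, and 1129 to 1456 in Crtc2 muscle, against 1758.

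Whether the replicate number pairs the libraries is not stated. Over 18 pairs with the same number, the correlation of deviations from group means was -0.04 to 0.13, and 1 exceeded 0.1. The 36 other pairs between groups had -0.12 to 0.05. Such correlations cannot decide whether animals or batches were shared. A replicate block left the members called at 3 in GFP muscle, 4 in Crtc2 muscle and 5 over both for the diets, and 0 in each other comparison. At this depth a count of 0 allows up to 0.118 CPM of Arntl in fed GFP replicate 1, with each count taken as a fragment of its own.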
